A study of Mus musculus with 2 samples.

Results

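Mmp8, Mmp9, Mmp12, Mmp13, Mmp14, Mmp19, Adam8, Adam10, Adam17 and Timp2 encode metalloproteinases, membrane sheddases and an inhibitor that act at the macrophage surface and in the matrix around it. These 10 genes, of 55536 annotated genes, were found by matching their symbols to the gene names of the transcript tables and following the gene identifiers into the gene tables. All 10 were matched in both libraries. The libraries hold ribosome-depleted total RNA from the nuclear (nucleoplasmic) fraction of bone-marrow-derived macrophages of C57BL/6J mice. The cells of both libraries had been given Lipid A, the TLR4-binding part of lipopolysaccharide, at 100 ng/ml for 12 h, washed for 12 h and then exposed to the same dose for 10 min. Replicate 1 started from 1 µg and replicate 2 from 500 ng of nucleic acid. Both carry the same donor identifier, and the labels do not say whether they were separate cultures, so the spread between them may be partly technical. The age and sex of the animals were not collected. Untreated cells and other times were not used here, so none of the values below shows a response to Lipid A.

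Expected counts on genes, which are estimated read numbers that need not be whole, summed to 24444219 in replicate 1 and 18051097 in replicate 2. The 10 genes received 22239.6 and 15391.2 of them. All 10 macrophage markers on a fixed list were detected in both libraries, led by Lyz2, Mpeg1 and Adgre1. None of 12 neutrophil markers was detected, and 3 of the 12 had no counts in either library. Of 10 stromal markers 1 was detected (Fap, 1.24 and 1.15 TPM), and of 8 osteoclast markers 3 were (Nfatc1, Acp5 and Atp6v0d2). Protein-coding genes held 20.2% of all TPM (a level per transcript length, scaled to a fixed total) in replicate 1 and 22.1% in replicate 2. TPM values are therefore low for all protein-coding genes and are best read against them.

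Matrix metalloproteinases (MMPs) are zinc-dependent endopeptidases made as inactive proenzymes and switched on by removal of a propeptide. Most are secreted and cut collagens, elastin and other matrix proteins, while Mmp14 is anchored in the membrane. The ADAMs are related membrane proteases that release the outer parts of cytokines, growth factors and receptors, a step called shedding. TIMPs bind the active site of MMPs and block it. Macrophages use these proteins to cross matrix, to remodel tissue and to release TNF.

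All 9 proteases share the same catalytic site in their coding sequence, and Timp2, the inhibitor, has none. The site is printed below as 33 bases of the GENCODE M21 coding sequence, 5′ to 3′, because it marks which transcripts of each gene could encode an active enzyme. Capitals mark the codons of the fixed residues, which are the zinc-binding histidines, the catalytic glutamate and a glycine.
Mmp8: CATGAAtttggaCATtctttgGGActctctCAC
Mmp9: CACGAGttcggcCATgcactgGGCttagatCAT
Mmp12: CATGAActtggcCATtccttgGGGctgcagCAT
Mmp13: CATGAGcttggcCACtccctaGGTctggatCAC
Mmp14: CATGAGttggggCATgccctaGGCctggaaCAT
Mmp19: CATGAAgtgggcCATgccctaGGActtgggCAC
Adam8: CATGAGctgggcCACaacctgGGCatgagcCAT
Adam10: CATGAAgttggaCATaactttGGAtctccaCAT
Adam17: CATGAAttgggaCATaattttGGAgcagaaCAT
In Mmp8, Mmp13, Mmp14 and Mmp19 the site lies in exon 5, and in Mmp12 it lies in exon 5 or, in the transcript Mmp12-203, in exon 6. In Mmp9 it is in exon 8 of 13. In Adam8 it is in exon 11 of 24, and in Adam17-201 in exon 11 of 19. The Adam10 site is split by an intron between exons 9 and 10. On mm10 the sites of the most abundant genes span chr14:54437627-54437659 on the plus strand (Mmp14), chr7:139987893-139987925 on the minus strand (Adam8) and chr12:21336732-21336764 on the minus strand (Adam17). Adam10 and Adam17 had 26 identical bases of 33, the highest number among all pairs of the 9 genes. The lowest was 17, found among others between Mmp13 and Adam17.

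Detection was set at 1 TPM with 10 or more expected counts, to be met by each library. By this rule 8 of the 10 genes were detected, against 42.9% of all protein-coding genes. The 10 genes and this limit were chosen with earlier results of these data known. The higher share may therefore be partly set in advance and is not a finding about the genes. Mmp14 was the highest and Mmp9 the lowest in both libraries, and the 5 highest were Mmp14, Adam8, Adam17, Timp2 and Adam10. Each of these 5 lay above 15 TPM on average. The remaining genes, all secreted MMPs, lay below 5 TPM. Summed over the 5 secreted MMPs the level was 9.99 TPM in replicate 1 and 8.16 TPM in replicate 2, while the 3 ADAMs together reached 81.05 and 93 TPM. A bulk library cannot tell fewer cells expressing a gene from less RNA per cell.

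**Figure D1:**
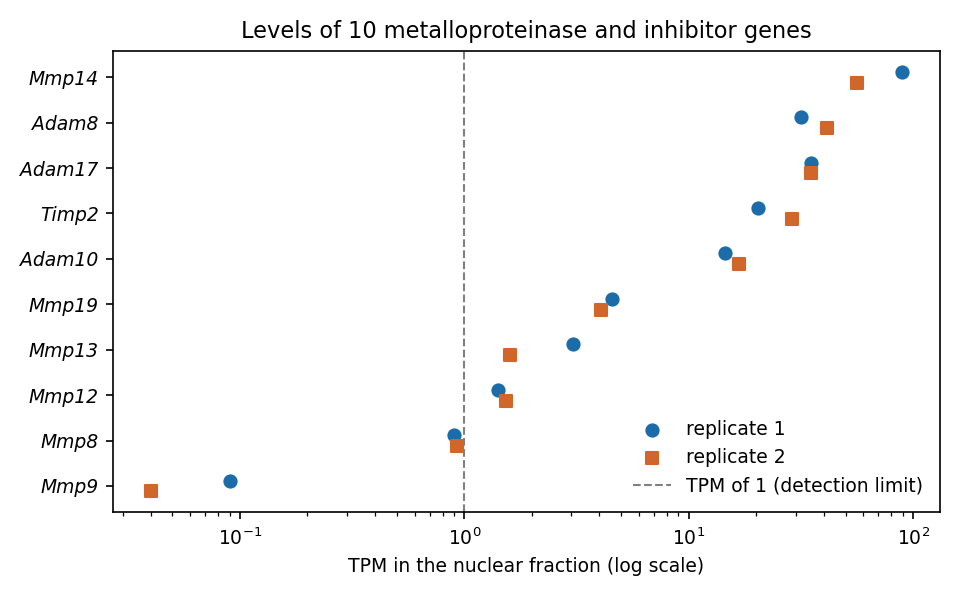
TPM of each of the 10 genes in replicate 1 (circles) and replicate 2 (squares) on a log scale; the dashed line marks a TPM of 1. Mmp14 lies highest in both replicates, Mmp8 lies just below the line at 0.9 and 0.93 TPM, and Mmp9 lies lowest.

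The membrane-anchored collagenase Mmp14 (chr14:54431612-54445364, plus strand), which cuts fibrillar collagen and activates pro-MMP2 and pro-MMP13, had 89.32 TPM in replicate 1 and 56.46 TPM in replicate 2. It averaged 72.89 ± 23.2 TPM (SD, n = 2), ranked 371 among 22028 protein-coding genes and was the highest of the 10 in each library. It made up 44.5% of the summed TPM of the 10 genes in replicate 1 and 30.3% in replicate 2. Expected counts were 7551 and 3457. The log2 ratio of replicate 1 over replicate 2 was 0.85 after TMM scaling (95% counting interval 0.79 to 0.91), and 0.66 by TPM. The replicates therefore differed by far more than counting error in this gene, in the same direction on both scales. Counting error is a narrow measure at such counts. Over all 11751 protein-coding genes that averaged 10 or more counts, the TMM-scaled log2 ratio had an SD of 0.56.

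Timp2 (chr11:118301069-118355740, minus strand) inhibits MMPs and also bridges MMP14 to pro-MMP2 at the cell surface. It had 20.29 TPM in replicate 1 and 28.78 TPM in replicate 2, a mean of 24.54 ± 6 TPM (SD, n = 2). Its log2 ratio was -0.36 (counting interval -0.44 to -0.28), opposite in sign to that of Mmp14. In size it was below the SD of 0.56 over all protein-coding genes that averaged 10 or more counts. The TPM of Mmp14 was 4.4 times that of Timp2 in replicate 1 and 1.96 times in replicate 2, so Mmp14 exceeded its inhibitor in both libraries by an amount that the replicates did not fix. Timp2 overlaps Cep295nl on the same strand, which had 127 and 125 counts, and reads of the overlap could have been split between them. The other MMP inhibitors were low in the gene tables: of 9 genes on the inhibitor list Timp2 alone was detected there. Timp3, chosen for mention after its values were seen, had 0.07 TPM in replicate 1 and 0.03 TPM in replicate 2. In the other deposited quantification Timp3 had 1.579 and 2.863 TPM and was detected, so its absence depends on the quantification. Timp1, likewise chosen for mention after its values were seen, had 0.94 and 0.53 TPM in the gene tables from 23 and 9 counts. Mmp2, the proenzyme that Mmp14 and Timp2 jointly activate, was named in the same way and had 0.21 and 0.29 TPM from 19 and 9 counts.

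The 3 sheddases were all well detected. Adam8 (chr7:139978932-139992562, minus strand), a sheddase of leukocytes that activates itself, had 31.63 TPM in replicate 1 and 41.33 TPM in replicate 2 (mean 36.48 ± 6.86, SD, n = 2). Adam17 (chr12:21323509-21373632, minus strand), the TNF-converting enzyme, had 34.98 and 34.99 TPM (mean 34.98 ± 0.00707, SD, n = 2). Adam17 was above Adam8 in replicate 1 and below it in replicate 2, so the order of these neighbours was not fixed. Adam10 (chr9:70678997-70780229, plus strand), which sheds Notch receptors and many adhesion proteins, had 14.44 and 16.68 TPM (mean 15.56 ± 1.58, SD, n = 2). It lay below the other two ADAMs in both libraries, and Adam17 exceeded it 2.42 times in replicate 1 and 2.1 times in replicate 2. Ratios of scaled counts between the replicates were small, at -0.02 for Adam8 (counting interval -0.09 to 0.05), 0.21 for Adam17 (0.15 to 0.28) and 0.03 for Adam10 (-0.06 to 0.11). By TPM they were -0.39, -0.00 and -0.21, against a median of -0.24 over all protein-coding genes on that scale. Adam17 overlaps Iah1 on the opposite strand (225.52 and 172 counts), and Adam8 overlaps Gm16201 (37.79 and 27.64 counts). Strandedness is not given in the sources used here, so reads of such overlaps cannot be assigned with certainty.

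Among the secreted MMPs, Mmp19 (chr10:128790910-128800824, plus strand), which cuts basement membrane components, was the highest, with 4.54 TPM in replicate 1 and 4.05 TPM in replicate 2 (mean 4.295 ± 0.346, SD, n = 2). Its counts were 527.12 and 353.18, with a log2 ratio of 0.30 (counting interval 0.11 to 0.50). Mmp19 overlaps Tmem198b on the opposite strand, which had 186.87 and 170.82 counts. Mmp13 (chr9:7272514-7283331, plus strand), the main interstitial collagenase of rodents, had 3.05 and 1.6 TPM from 297 and 109 counts. Of the 9 genes with a ratio it was the sole one past 2-fold between the replicates, with a log2 ratio of 1.17 (counting interval 0.85 to 1.5). Of all protein-coding genes that averaged 10 or more counts, 4.05% were more than 2-fold higher in replicate 1 and 2.14% more than 2-fold lower. By TPM the Mmp13 ratio was 0.93, and relative to the median protein-coding gene on that scale 1.17.

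Mmp12 (chr9:7344381-7369499, plus strand), the macrophage elastase, had 1.41 TPM in replicate 1 and 1.54 TPM in replicate 2 from 87 and 79 counts, just inside the detection limit. Mmp8 (chr9:7558456-7568485, plus strand), a collagenase best known from neutrophil granules, had 0.9 and 0.93 TPM from 79 and 57 counts, just outside it. Their ratios between the replicates, -0.14 (counting interval -0.59 to 0.32) and 0.19 (-0.31 to 0.71), were within counting error. Mmp9 (chr2:164940780-164955850, plus strand), the gelatinase that neutrophils also store, had 0.09 and 0.04 TPM from 11 and 1 counts, too few for a ratio. The summed TPM of the 12 neutrophil markers was 1.33 in replicate 1 and 0.78 in replicate 2, and the part of such cells in the Mmp8 and Mmp9 values was not tested. Mmp13 lay above Mmp12 in both libraries, but at 2.16 times its level in replicate 1 and 1.04 times in replicate 2. In the other deposited quantification their order turned in replicate 2, where Mmp13 had 0.8438 TPM and Mmp12 had 1.813 TPM.

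Over the 9 genes that averaged 10 or more counts, the median log2 ratio of replicate 1 over replicate 2 was 0.19, with a range of -0.36 to 1.17 and 6 of 9 above 0. Over all 11751 protein-coding genes at that count the median was -0.01, and 5805 of them were above 0. On the TPM scale the ratios of Adam17, Adam10 and Mmp8 were not above 0, but the median over all protein-coding genes was -0.24 on that scale. Relative to that median, an alternative chosen after seeing the data, they were 0.24 for Adam17, 0.03 for Adam10 and 0.19 for Mmp8. Mmp14, Mmp13 and Mmp19 stayed above 0 on every scale tried. Timp2 and Adam8 stayed below it.

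**Figure D2:**
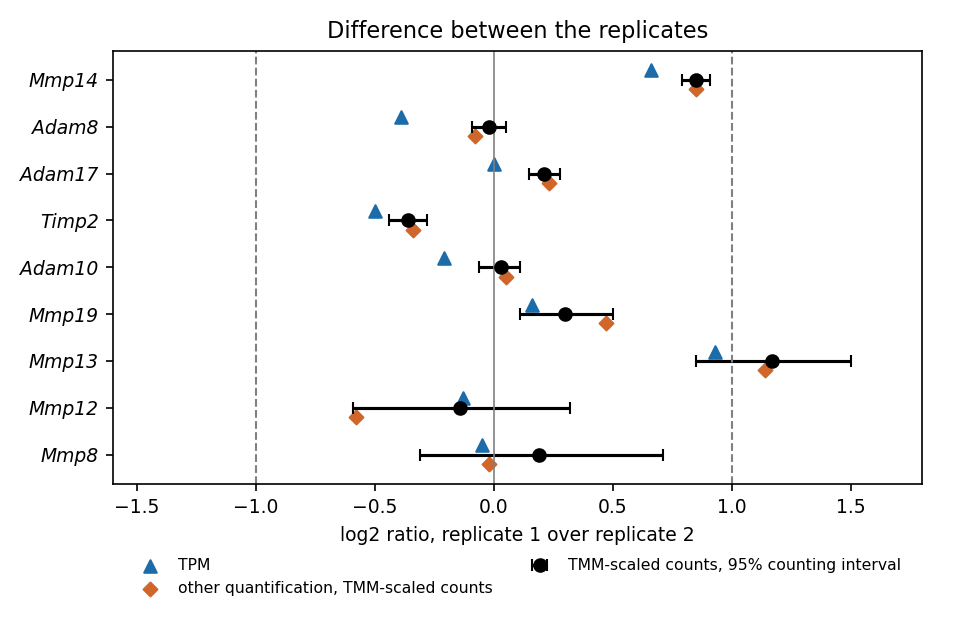
Log2 ratio of replicate 1 over replicate 2 for the 9 genes that averaged 10 or more counts: TMM-scaled expected counts with 95% counting intervals (black), TPM (triangles) and the other quantification (diamonds); dashed lines mark 2-fold. Mmp13 alone passes 2-fold, at 1.17 by counts and 1.14 in the other quantification but 0.93 by TPM, and Mmp14 follows at 0.85.

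Nuclear RNA holds unfinished and unspliced transcripts, so the annotated transcript classes were compared next. A retained-intron transcript keeps an intron and encodes no annotated protein, and a nonsense-mediated decay transcript carries an early stop. Timp2, Mmp8 and Mmp13 have no transcripts of other classes, and in Mmp19 all TPM fell on protein-coding transcripts in both libraries. In Adam10, 95.9% and 96.6% of TPM fell on them. The share was lower in Mmp14 (80.8% in replicate 1 and 85.7% in replicate 2), Adam8 (78.2% and 67.9%) and Adam17 (72% and 77.8%). Retained introns took 18.6% and 14.2% of TPM in Mmp14, 21.8% and 22% in Adam8 and 19.1% and 17% in Adam17. The median over the 6 detected genes that have both transcript types was 11.4% in replicate 1 and 13.7% in replicate 2. Over all 5977 such genes it was 26.4% and 27.1%. In the other deposited quantification the shares of the 6 genes were 18.6% and 15.1% (Mmp14), 25.7% and 24% (Adam8) and 24.3% and 24.4% (Adam17). They were 7.26% and 6.02% in Adam10, 11.6% and 2.87% in Mmp19 and 61.2% and 77.8% in Mmp12. No value over all such genes is given for that quantification, so the contrast holds for the first one only.

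The share of TPM on transcripts that code for the zinc site printed above was 80.5% and 85.7% in Mmp14, 78.2% and 67.9% in Adam8, 95.9% and 96.6% in Adam10, and 72.7% and 77.8% in Adam17. In Adam17, the decay transcript Adam17-203 differs little in length from Adam17-201 (4423 and 4443 bases), and its count of 372.91 in replicate 1 had an assignment SD of 96. The other deposited transcript quantification placed 1022.9 and 745.81 counts on Adam17-202, which had none in the first. Adam17-202 is itself protein-coding and holds the zinc site. In that quantification the decay transcripts of Adam17 took 29% of its TPM in replicate 1 and 17.6% in replicate 2, against 8.98% and 5.21% in the first. The share of Adam17 TPM on protein-coding transcripts was 46.7% and 58% there, and that on transcripts with the zinc site 45% and 52.6%.

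Among the 9 genes with a mean count of 10 or more, Mmp12 had the largest difference between the replicates in its protein-coding share. Mmp9, with 11 and 1 counts, is not compared. In replicate 1, 54.5% of its TPM fell on the decay transcript Mmp12-204, which does not code for the zinc site, and 44.4% on protein-coding transcripts. In replicate 2, none fell on Mmp12-204 and 86.8% on protein-coding transcripts. The counts behind this were small: Mmp12-204 had 56.11 counts with an assignment SD of 10.1 in replicate 1 and 0 counts with an assignment SD of 3.15 in replicate 2. The other quantification gave Mmp12 323 counts in replicate 1 and 512 in replicate 2, which are 3.71 and 6.49 times those of the gene table. A count at least 2 times that of the gene table in both libraries was found for 11.4% of the 11732 protein-coding genes that averaged 10 or more counts. Most of the added counts fell on the retained-intron transcript Mmp12-206, with 256.29 counts in replicate 1 and 458.1 in replicate 2, against 2.54 and 23.9 in the first quantification. The share of Mmp12 TPM on transcripts with the zinc site was then 3.89% and 18.4%. The level of spliced, coding Mmp12 RNA in these nuclei thus depends on the quantification used.

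**Figure D3:**
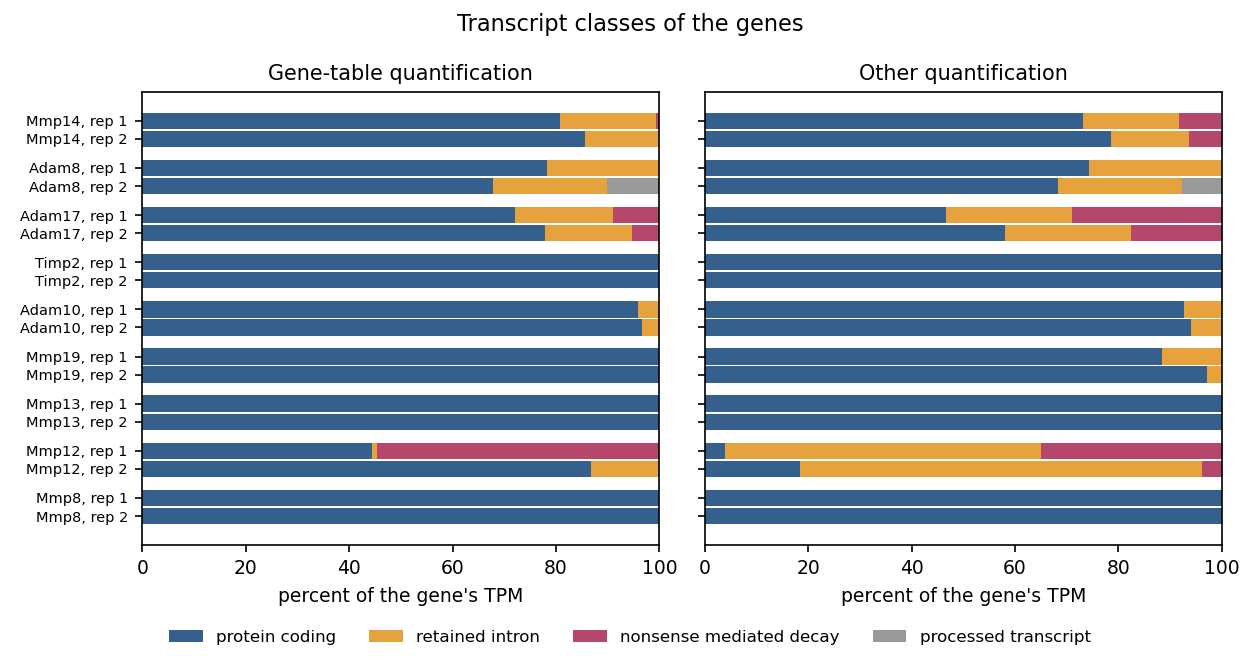
Percent of each gene's TPM on protein-coding, retained-intron, nonsense-mediated decay and processed transcripts in replicates 1 and 2, in the quantification behind the gene tables (left) and in the other quantification (right). Mmp12 changes most between the panels, its retained-intron share being 1.07% and 13.2% on the left and 61.2% and 77.8% on the right; Mmp9 is left out for its few counts.

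Mmp13, Mmp12 and Mmp8 belong to a cluster of 10 Mmp genes on chromosome 9 (chr9:7272514-7699585). Of these, 3 genes were detected, Mmp13, Mmp12 and Mmp27, and 6 had no counts in either library. The highest was Mmp27, which lies next to Mmp8 and had 8.15 TPM in replicate 1 and 15.58 TPM in replicate 2. Between Mmp12 and Mmp8 lie Mmp1b, Mmp3, Mmp1a and Mmp10, all listed at 0 counts. Mmp13 and Mmp12 are direct neighbours in the cluster, while Mmp27 is separated from them by Mmp8 and these 4 genes.

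**Figure D4:**
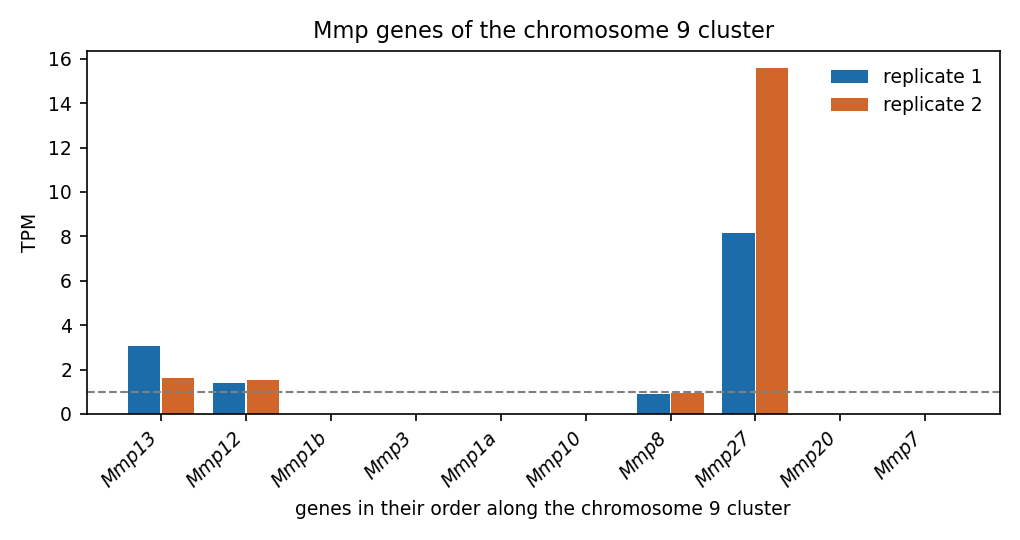
TPM of the 10 Mmp genes of the chromosome 9 cluster in their order along the chromosome, for replicate 1 (left bar of each pair) and replicate 2 (right bar); the dashed line marks a TPM of 1. Mmp27 is highest at 8.15 and 15.58 TPM, and 6 genes are at 0.

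Promoters were read from RefSeq (GRCm38.p6) as windows of 300 bases, 250 before and 50 after each annotated start. The table matched 8 of the 10 genes, with 2 starts for Mmp12 and with no entry for Mmp9 and Mmp19. An AP-1 motif (TGANTCA, which reads alike on both strands) was found in the window of Mmp13, 35 bases before the start, and of the second start of Mmp12, 44 bases before it. It occurs in 7.81% of all 32851 windows. The TATA motif TATAAA, searched on both strands, was found in the same windows and in that of Mmp8, and in 13.6% of all. In Mmp8 the match lay on the minus strand, 3 bases before the start. It began 16 bases before the annotated start in Mmp13 and 4 bases after the second start in Mmp12. These promoters are printed because they are the ones of the 10 genes that hold both motifs, at chr9:7272264-7272563 for Mmp13 and chr9:7347124-7347423 for Mmp12, both on the plus strand. Capitals mark the AP-1 and TATA motifs.
Mmp13: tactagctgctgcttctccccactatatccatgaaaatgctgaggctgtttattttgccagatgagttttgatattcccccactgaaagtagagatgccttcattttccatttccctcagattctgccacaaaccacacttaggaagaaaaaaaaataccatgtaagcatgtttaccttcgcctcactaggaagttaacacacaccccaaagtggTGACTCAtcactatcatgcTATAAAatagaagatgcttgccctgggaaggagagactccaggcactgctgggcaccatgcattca
Mmp12: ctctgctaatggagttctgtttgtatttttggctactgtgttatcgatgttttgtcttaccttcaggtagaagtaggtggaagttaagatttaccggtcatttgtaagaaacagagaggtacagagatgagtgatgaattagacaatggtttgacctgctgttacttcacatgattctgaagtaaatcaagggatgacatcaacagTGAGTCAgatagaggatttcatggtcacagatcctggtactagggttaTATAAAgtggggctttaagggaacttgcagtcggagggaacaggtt
The GC box GGGCGG, on either strand, was found in the windows of Mmp14, Adam8, Adam10, Adam17 and Timp2 and in 35.7% of all windows. These 5 genes are also the 5 highest of the 10. A match is a run of letters and does not show that a factor was bound.

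The same 5 windows held more CpG dinucleotides than those of the other matched genes, with 32 in Adam10, 30 in Adam17, 25 in Timp2, 10 in Mmp14 and 6 in Adam8. Mmp8 had 4, Mmp13 had 1 and the Mmp12 windows had 0 and 3, against a median of 7 over all windows. Among all protein-coding genes with a window, 9.25% of those with at most 4 CpG were detected and 71.4% of those with 30 or more. Among the protease and inhibitor genes with a window, 4 of 21 with at most 4 CpG were detected and 4 of 18 with at least 20. The CpG count did not order the levels among the 10 genes, since Mmp14 and Adam8, with 10 and 6, lay above Adam10, with 32. The windows of Mmp14 (chr14:54431348-54431647, plus strand) and Adam17 (chr12:21373583-21373882, minus strand) are printed to show this contrast, with each CpG in capitals.
Mmp14: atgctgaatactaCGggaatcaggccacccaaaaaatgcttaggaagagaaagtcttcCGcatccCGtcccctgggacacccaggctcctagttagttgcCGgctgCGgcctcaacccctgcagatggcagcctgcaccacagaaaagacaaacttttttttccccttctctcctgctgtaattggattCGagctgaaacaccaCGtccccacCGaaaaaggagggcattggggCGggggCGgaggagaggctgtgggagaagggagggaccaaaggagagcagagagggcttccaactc
Adam17: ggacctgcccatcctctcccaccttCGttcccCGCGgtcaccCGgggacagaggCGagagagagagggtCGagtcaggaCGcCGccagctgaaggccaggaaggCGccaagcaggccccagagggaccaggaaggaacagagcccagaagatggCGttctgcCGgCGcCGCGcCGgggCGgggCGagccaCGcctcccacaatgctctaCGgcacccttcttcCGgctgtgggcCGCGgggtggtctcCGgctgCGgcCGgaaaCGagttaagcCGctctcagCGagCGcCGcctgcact

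Most other genes of the protease families were not detected. Of 23 Mmp genes 5 were detected, of 33 Adam genes 9, and of 19 Adamts genes 2 (Adamts10 and Adamts6), against 42.9% of all protein-coding genes. Mmp14 was the highest Mmp gene by far, with Mmp27 next at a mean of 11.87 ± 5.25 TPM (SD, n = 2). Among the Adam genes, Adam15 had 44.21 TPM in replicate 1 and 34.37 TPM in replicate 2, close to Adam8 and Adam17, with which its range overlapped. Mmp25 and Adam22 were past 2-fold between the replicates, with log2 ratios of 1.59 and -1.15.

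Of 9 partners of the sheddases 4 were detected, or 44.4%, against 42.9% of all protein-coding genes. ADAM17 needs an iRhom protein to mature, and Rhbdf2, which encodes the iRhom of leukocytes, had 25.12 TPM in replicate 1 and 19.19 TPM in replicate 2. Frmd8, which stabilises the iRhom complex, had 5.85 and 4.18 TPM. Tspan14, one of the tetraspanins that carry ADAM10 to the surface, had 14.5 and 16.8 TPM, and Tspan17 had 4.58 and 2.06 TPM with a log2 ratio of 1.41. Of 9 genes for the activation of MMP proenzymes 4 were detected, or 44.4%, again close to the 42.9% of all protein-coding genes. They were led by Furin (22.37 and 18.41 TPM), a convertase that cleaves the propeptides of MMP14, ADAM10 and ADAM17. Pcsk7 (15.63 and 14.6 TPM) and Plau (10.44 and 13.43 TPM), the urokinase that makes plasmin, followed.

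Of 25 substrates of ADAM10 and ADAM17, 18 were detected, or 72%, against 42.9% of all protein-coding genes. The list was written with earlier results of these data known, and it shares Csf1r and Mertk with the macrophage marker list. Lrp1 had 203.9 TPM in replicate 1 and 257.3 TPM in replicate 2, the receptor Csf1r had 172.2 and 233.5 TPM, and the TNF receptor Tnfrsf1b had 155.5 and 124 TPM. Each of these was higher than Adam17 and Adam10 in both libraries. Tnf itself, the substrate that gave ADAM17 its other name, was chosen for mention after its values were seen and had 80.58 and 53.26 TPM. Axl, a receptor tyrosine kinase that takes part in the uptake of dying cells, was past 2-fold between the replicates, with 54.47 TPM in replicate 1, 26.1 TPM in replicate 2 and a log2 ratio of 1.25.

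**Figure D5:**
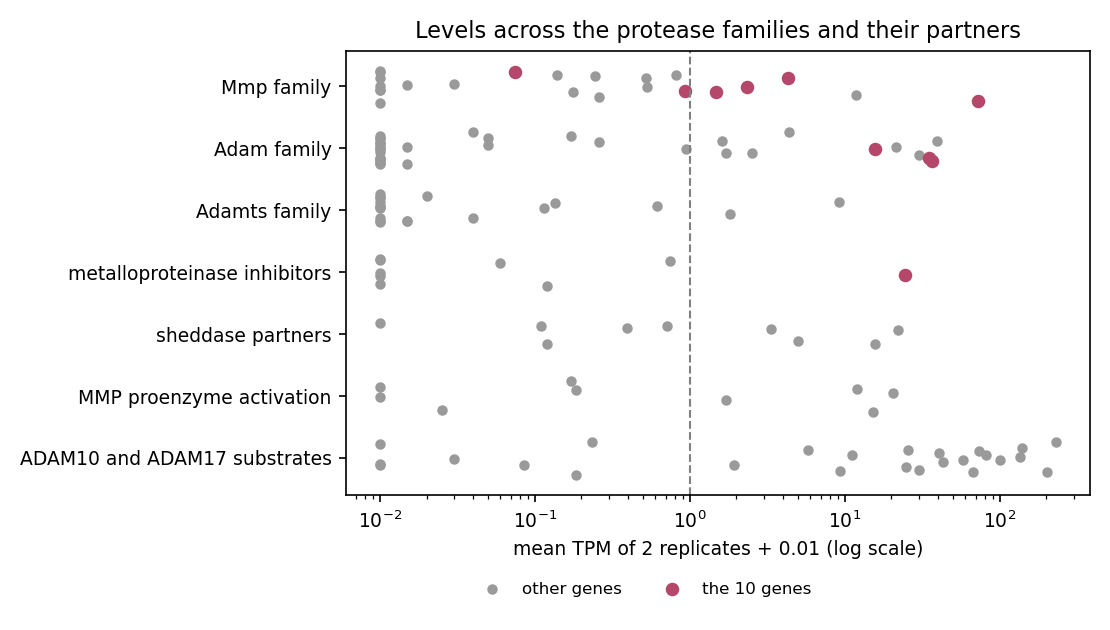
Mean TPM of 2 replicates, with 0.01 added and on a log scale, for the genes of 7 lists; large points are the 10 genes and small points the other genes, with vertical scatter for visibility only, and the dashed line marks a TPM of 1. Mmp14 lies alone at the right of the Mmp list, Timp2 alone in the inhibitor list, and the substrates reach the highest levels, up to Lrp1.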

How the data were processed

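Total RNA of the nuclear fraction was measured in 2 libraries of 1 group. Per the labels and the descriptions deposited with the files, the authors derived the gene tables and the first transcript tables (expected counts, TPM and the percent of a gene's TPM on each transcript) from transcriptome alignments to mm10 with GENCODE M21, and the other transcript table (estimated counts and TPM) from reads and an index. The sources used here do not give the aligner, the quantifiers, their versions or strandedness. The authors scaled TPM over all targets of a table. The deposited counts were rounded for TMM factors (edgeR 4.0.16, R 4.3.3; 0.945 and 1.06), and 0.5 was added to each in a ratio. Entries that name no gene held 1.06% and 0.245% of counts and were left out. With 1 group there is no contrast, and no test or p-value was made. Counting intervals are exact (Clopper-Pearson, 95%) and cover counting error only. The script was tested on simulated data. The 10 genes, the other lists and the thresholds were chosen with earlier results of these data known. Named besides the 10 are the 3 highest detected genes of each list and up to 3 past 2-fold at a mean count of at least 50, and otherwise as stated; 1 gene that this rule names is not reported here. The zinc site was searched in coding sequences, and promoters came from RefSeq. Alternatives used DESeq2 1.42.0 size factors, TPM ratios, other detection limits, the other table and each library alone.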

Additional observations from a re-analysis of the deposited data

How the results depend on the processing

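The number of the 10 genes detected was 8, and 5 at a TPM of at least 5, where Mmp19, Mmp13 and Mmp12 were lost. It was 9 at a TPM of at least 0.5, 6 in the other quantification, and 8 in each library alone. The share of all protein-coding genes, 42.9%, is given for the main rule only. Whether these other numbers moved with that share was not tested. The number past 2-fold between the replicates was 1. It was 0 by TPM, 1 by TPM relative to the median protein-coding gene (an alternative chosen after seeing the data), and 2 with no filter on low counts, where Mmp9 entered with 11 and 1 counts. The median coding share of TPM over the detected genes, 89.7%, was 84.3% in the other quantification, and 88.3% to 91.7% with each library alone. It includes Timp2 and Mmp13, which have protein-coding transcripts only, so their share is 100% by annotation in every setting. Its steadiness is therefore partly fixed in advance. The median log2 ratio was 0.19, and -0.05 by TPM, where all protein-coding genes had a median of -0.24; relative to that median it was again 0.19. TPM in the other quantification was lower for 9 of 10 genes by more than the replicate SD, since its protein-coding genes held 9.64% and 14.4% of TPM. Brought to the same protein-coding total, an alternative chosen after seeing the data, 6 of 10 still moved by more than that SD. On that scale 8 were detected. The SD rests on 2 values per gene, so the number moved does not measure the size of the change. Adam17, with an SD of 0.00707, counted as moved at 35.59 against 34.98 TPM. Mmp13, with an SD of 1.03, did not at 1.772 against 2.325 TPM. In the gene tables, the Mmp12 ratio by TPM relative to the median protein-coding gene was 0.11, in place of -0.14 by scaled counts. By scaled counts of the other quantification it was -0.58. In the other quantification, detected Mmp genes numbered 3 in place of 5, Adamts genes 1 in place of 2 and inhibitors 2 (Timp2 and Timp3) in place of 1. No ratio can be given with a replicate left out. No paired analysis was possible because there is 1 group. Counts of 11 and 1 limit Mmp9, and counts under 100 limit Mmp8 and Mmp12.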
